A study of Mus musculus with 8 samples.

Results

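The red cell membrane and erythroid genes are 30 genes, chosen by name, that red cells or their precursors are known for: parts of the red cell membrane and its skeleton, erythroid transcription factors, the theta globins, iron and haem transporters, maturation factors and red cell enzymes. Each had 1 probe set with a single gene symbol among the 30063 genes so named on the array, 1 of them (Epb42) after an old symbol was updated, and haem synthesis enzymes are not among them. The list was proposed with earlier results of these data in view, as per-array gauges of blood RNA, so the values of its members in the comparison of the groups are given as a description.

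The RNA was that of endothelium in the thoracic aortas of 8 female mice, all positive for Cdh5-CreERT2 and homozygous for a floxed Mef2c allele (Mef2c f/f). Cdh5-CreERT2 is a recombinase under the control of the endothelial cadherin gene Cdh5 that acts once tamoxifen is present. Starting at 10 weeks of age, 4 mice received 5 daily injections of tamoxifen in sunflower seed oil with 10% ethanol, which deletes Mef2c in the endothelium (EKO). The other 4, littermates, received the oil and ethanol alone (control), so tamoxifen and the deletion cannot be told apart. The aortas were collected 14 days from the first injection, TRIzol was passed through each lumen, and 5 ng of total RNA per aorta was measured on its own Affymetrix Mouse Transcriptome Array 1.0. Values are log2 expression, so a difference of 1 is a doubling.

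Mef2c, the targeted gene, read 9.62, 9.79, 9.88 and 9.80 on control arrays 1 to 4 and 9.56, 9.73, 9.66 and 10.03 on EKO arrays 1 to 4. The groups overlapped, and the single probe set covers the whole transcript, so it does not check the deletion. The 11 measured endothelial markers (12 listed) averaged 12.7 to 12.9 on control arrays and 12.7 to 13.0 on EKO arrays. Among them were the junction genes Pecam1 (18.1 to 18.2) and Cdh5 (16.2 to 16.5). Of the 11, 2 read below the median of the negative control probe sets on every array. With 4 arrays a group, precision is limited by that number.

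Red cells lose their nucleus late in development, so circulating red cells carry RNA left over from the last stages of maturation. GATA1, KLF1 and NFE2 drive the erythroid programme in precursors of the bone marrow, where the erythropoietin receptor and the transferrin receptor supply survival signals and iron. Band 3, ankyrin, spectrin, protein 4.2 and the Rh proteins then assemble the membrane and its skeleton. RNA taken through the lumen of a vessel can hold blood as well as endothelium.

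Most of the 30 members read low on these arrays. The probe sets that the array marks as negative controls had medians of 7.34 to 7.45. Compared with that median on each array, 22 members were below it on every array, 5 were above it on every array (Slc4a1, Slc25a37, Bnip3l, Mkrn1 and Bpgm) and 3 were above it on some (Abcb10, Hbq1a and Hbq1b). In all, 15 members had a mean over the arrays above 6.14, the median of all probe sets, and were tested with the other genes, 16232 in total. In each of these 15 the means of both groups lay above that level.

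The members differed in how far they moved between arrays. In 23 members, 15 of them below the level filter, the highest and lowest array differed by less than 1 on the log2 scale. The other 7 were all among the 15 tested, namely the anion exchanger Slc4a1, the theta globins Hbq1a and Hbq1b, the mitochondrial iron importer Slc25a37, Mkrn1, Bpgm and Car2. A range of at least 1 was reached by 12.1% of the genes tested and by 9.001% of all genes. Of these 7 members 6 were highest on control array 3 and Slc25a37 on control array 1, and none was lowest on control array 1, 3 or 4 or on EKO array 1. In 6 of the 7, control array 2 read within the range of the EKO arrays, and Mkrn1 read lower there than on any EKO array.

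**Figure D1:**
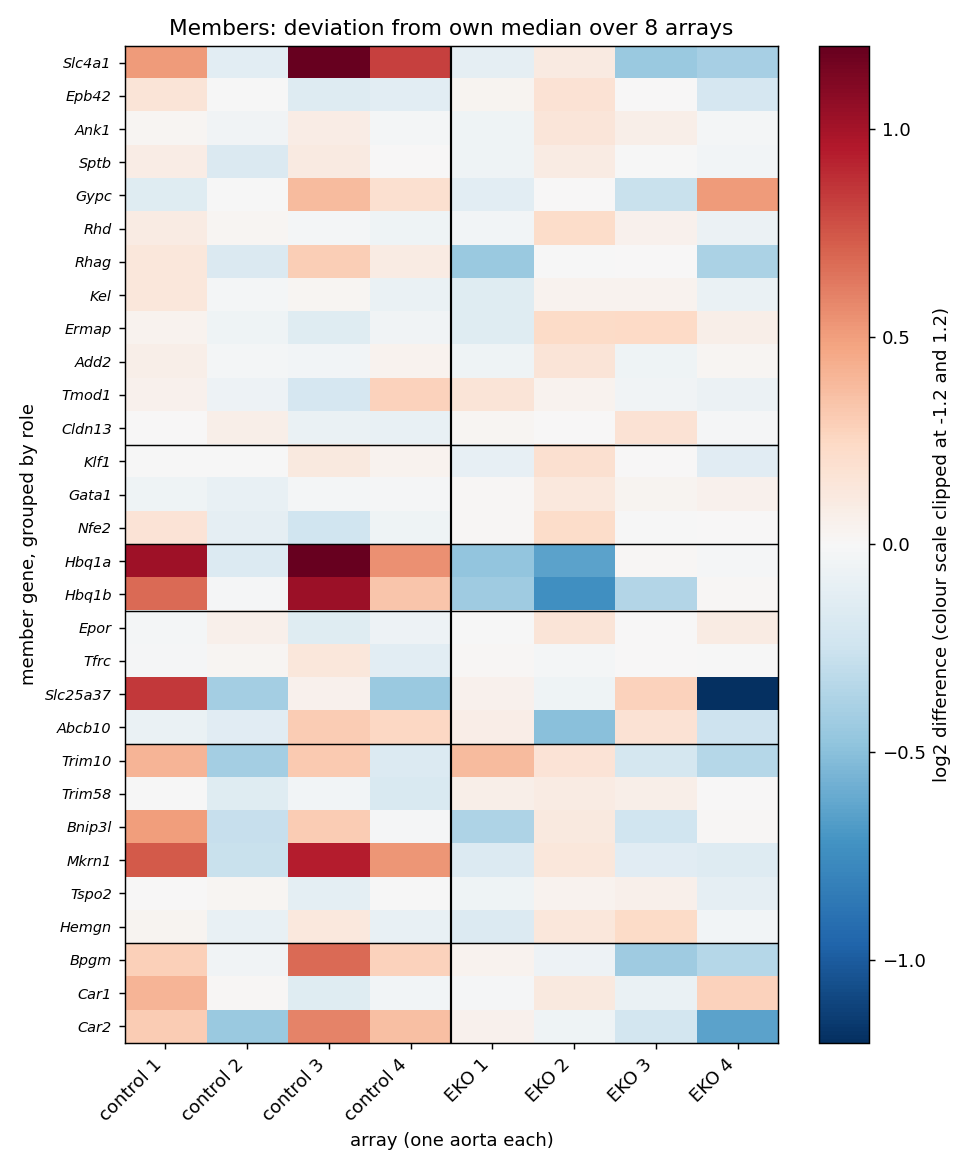
Log2 deviation of each of the 30 members (rows, grouped by role) from its own median over the 8 arrays (columns, 1 aorta each), red above and blue below the median. Slc4a1, Hbq1a, Hbq1b and Mkrn1 stand above their median on control arrays 1, 3 and 4, and 23 of the rows span less than 1.

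Among the membrane genes, Slc4a1 was the single member above the negative controls. It encodes band 3, the chloride and bicarbonate exchanger that anchors the red cell skeleton. Slc4a1 read 8.39, 7.76, 9.22 and 8.70 on control arrays 1 to 4 and 7.78, 7.98, 7.43 and 7.48 on EKO arrays 1 to 4. Control arrays 1, 3 and 4 lay above all EKO arrays, and control array 2 lay among them. The means were 8.52 ± 0.61 in control and 7.67 ± 0.26 in EKO arrays (SD, n = 4). EKO minus control was -0.85 (SE 0.28), with a 95% confidence interval from -1.49 to -0.20. On EKO arrays 3 and 4 it read just above the negative controls, whose medians there were 7.40 and 7.34, so no fold change is given. In bulk RNA such as this, fewer cells of a type and less RNA per cell cannot be told apart.

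The other 11 membrane genes were below the negative controls on every array. Gypc, a glycophorin that ties the skeleton to the membrane, read 6.20, 6.34, 6.73 and 6.54 on control arrays 1 to 4 and 6.22, 6.35, 6.08 and 6.86 on EKO arrays 1 to 4. The groups overlapped throughout (difference -0.07, SE 0.18). Ermap, a membrane protein of erythroid cells, read 6.36, 6.26, 6.17 and 6.27 on control arrays and 6.17, 6.55, 6.56 and 6.39 on EKO arrays, overlapping as well (0.15, SE 0.10). Rhag, the Rh-associated glycoprotein, had a difference of -0.29, with 6.17 ± 0.19 in control and 5.88 ± 0.24 in EKO arrays (SD, n = 4). In the rest the groups differed by 0.07 or less in either direction: protein 4.2 (Epb42, 0.036), ankyrin (Ank1, 0.03), erythroid beta spectrin (Sptb, -0.0026), Rhd (0.03), the Kell antigen (Kel, -0.05), beta adducin (Add2, 0.0045), tropomodulin (Tmod1, 0.0058) and the claudin Cldn13 (0.07). The genes of the skeleton that band 3 is anchored to thus read below the negative controls on every array, and their differences lay near 0.

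The 3 transcription factors were flat and below the negative controls. Gata1 read between 4.54 and 4.61 on control arrays and between 4.63 and 4.74 on EKO arrays. Klf1 read 5.09 to 5.21 and 4.96 to 5.29, and Nfe2 5.65 to 6.06 and 5.88 to 6.11. The groups of Gata1 did not overlap (EKO minus control 0.10), nor did those of Trim58 (0.15), a ubiquitin ligase of late erythroblasts, which read 4.97 to 5.15 on control and 5.16 to 5.25 on EKO arrays. Of all 30063 genes without a filter on level, 5.91% had groups that did not overlap and 4.25% did so with EKO higher, and among the genes tested the shares were 6.08% in either direction and 2.67% with EKO lower. No other member had groups that did not overlap. With quantile normalization or with each array centred on its median, both genes overlapped between the groups, with differences of 0.05 and 0.09, and of 0.03 and 0.09.

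The theta globins Hbq1a and Hbq1b, alpha-like globin genes of the alpha-globin cluster, read above the negative controls on some control arrays and on no EKO array. The 300 bases around their starts are shown because they are near-identical in this window, as a gauge of how alike the duplicated loci are. The window runs from 250 bases before to 50 bases after the start, in RefSeq's GRCm38.p6, and capitals mark the 14 bases that differ between the windows (95.3% identity). Hbq1a lies on the plus strand at chr11:32299819-32300118 and Hbq1b on the plus strand at chr11:32286714-32287013.
Hbq1a: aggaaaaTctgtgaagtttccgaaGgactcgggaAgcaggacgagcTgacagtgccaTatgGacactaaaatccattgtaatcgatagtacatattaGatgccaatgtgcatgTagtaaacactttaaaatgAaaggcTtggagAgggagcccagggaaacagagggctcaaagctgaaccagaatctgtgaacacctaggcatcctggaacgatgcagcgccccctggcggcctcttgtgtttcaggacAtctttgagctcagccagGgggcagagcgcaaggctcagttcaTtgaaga
Hbq1b: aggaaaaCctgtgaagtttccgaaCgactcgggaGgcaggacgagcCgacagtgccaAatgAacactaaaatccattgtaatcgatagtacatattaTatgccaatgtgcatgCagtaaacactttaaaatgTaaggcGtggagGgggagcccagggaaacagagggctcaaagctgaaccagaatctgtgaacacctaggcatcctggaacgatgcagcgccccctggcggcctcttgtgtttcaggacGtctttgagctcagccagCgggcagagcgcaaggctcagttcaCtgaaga

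Hbq1a read 8.09, 6.91, 8.31 and 7.62 on control arrays 1 to 4 and 6.60, 6.43, 7.09 and 7.06 on EKO arrays 1 to 4. Hbq1b read 7.60, 6.91, 7.95 and 7.25 on control arrays and 6.49, 6.18, 6.57 and 6.93 on EKO arrays. Both were highest on control array 3 and lowest on EKO array 2, and in both control array 2 lay within the EKO range. The differences were -0.94 for Hbq1a (SE 0.30, 95% confidence interval -1.62 to -0.25) and -0.88 for Hbq1b (SE 0.23, -1.41 to -0.35). Hbq1a was above the negative controls on control arrays 1, 3 and 4 and Hbq1b on control arrays 1 and 3, and every EKO reading of both lay below them, so no fold change is given. Probes of near-identical genes can read either transcript. Only the windows around the starts were compared here, not the transcripts or probes, so it is uncertain which gene of the pair was read.

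The adult globin genes, which are no members, could not be read the same way. Their 4 probe sets each carry several symbols, 2 the adult alpha globins and 2 the adult beta globins. The alpha-globin sets read 19.8 to 19.9 on every array and ranked within the 25 highest of 72688 probe sets. In all, 98 probe sets exceeded 19 on all arrays. One beta-globin set read 19.15 to 19.38 on control and 18.96 to 19.16 on EKO arrays. The other read 15.31, 14.87, 14.96 and 14.88 on control arrays 1 to 4 and 14.65, 14.73, 14.88 and 14.86 on EKO arrays 1 to 4, a difference of -0.23. Both beta-globin sets were highest on control array 1 and lowest on EKO array 1, and their groups overlapped. The mean of the 4 sets, used further on, thus includes the alpha-globin sets, which ranged over 0.16 only.

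Among receptors and iron transporters, Slc25a37 and Abcb10 were readable and overlapped between the groups. Slc25a37 (mitoferrin 1), which brings iron into mitochondria for haem, read 11.46, 10.21, 10.66 and 10.17 on control arrays 1 to 4 and 10.67, 10.57, 10.90 and 9.40 on EKO arrays 1 to 4. Its spread came from control array 1 at the top and EKO array 4 at the bottom, a 4.19-fold range. The difference was -0.24 (SE 0.38), and it became 0.09 without EKO array 4 and 0.04 without control array 1. Abcb10, a mitochondrial transporter that stabilises mitoferrin, read 7.84, 7.78, 8.22 and 8.17 on control arrays and 7.996, 7.42, 8.09 and 7.67 on EKO arrays (-0.21, SE 0.17). The transferrin receptor Tfrc, the main route of iron into erythroblasts, read 6.14 to 6.40 on control and 6.24 to 6.28 on EKO arrays. The erythropoietin receptor Epor read 5.94 to 6.14 and 6.08 to 6.24. Both receptors were below the negative controls on all 8 arrays.

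Of the maturation genes, Mkrn1 was high on the same arrays as Slc4a1. Mkrn1, a ubiquitin ligase expressed in many tissues, read 11.90, 10.90, 12.11 and 11.70 on control arrays 1 to 4 and 10.997, 11.30, 11.03 and 11.01 on EKO arrays 1 to 4. Control arrays 1, 3 and 4 were above every EKO array and control array 2 was the lowest of the 8. The difference was -0.57 (SE 0.24, 95% confidence interval -1.10 to -0.03). Bnip3l (NIX), which directs the removal of mitochondria in reticulocytes and is made in other cells too, read 12.04, 11.26, 11.84 and 11.52 on control arrays and 11.16, 11.65, 11.29 and 11.55 on EKO arrays, with overlapping groups (-0.25, SE 0.18). Hemgn, a nuclear protein of haematopoietic cells, read 6.503 to 6.72 on control and 6.43 to 6.83 on EKO arrays. Trim10 ranged from 5.79 to 6.61 and the translocator protein gene Tspo2 from 6.12 to 6.30 over all arrays, with differences of -0.04 and 0.01.

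Among the enzymes, Bpgm and Car2 were higher on control arrays 1, 3 and 4 than on any EKO array. Bpgm makes 2,3-bisphosphoglycerate, which lowers the oxygen affinity of haemoglobin. It read 9.78, 9.46, 10.17 and 9.77 on control arrays 1 to 4 and 9.54, 9.44, 9.07 and 9.15 on EKO arrays 1 to 4 (-0.50, SE 0.16, 95% confidence interval -0.87 to -0.13). Carbonic anhydrase 2 (Car2), which red cells share with other tissues, read 6.79, 6.04, 7.07 and 6.84 against 6.53, 6.435, 6.26 and 5.84 (-0.42, SE 0.23), below the negative controls on all arrays. Carbonic anhydrase 1 (Car1), abundant in mature red cells, read 5.13 to 5.69 and 5.20 to 5.55 and differed by 0.01.

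**Figure D2:**
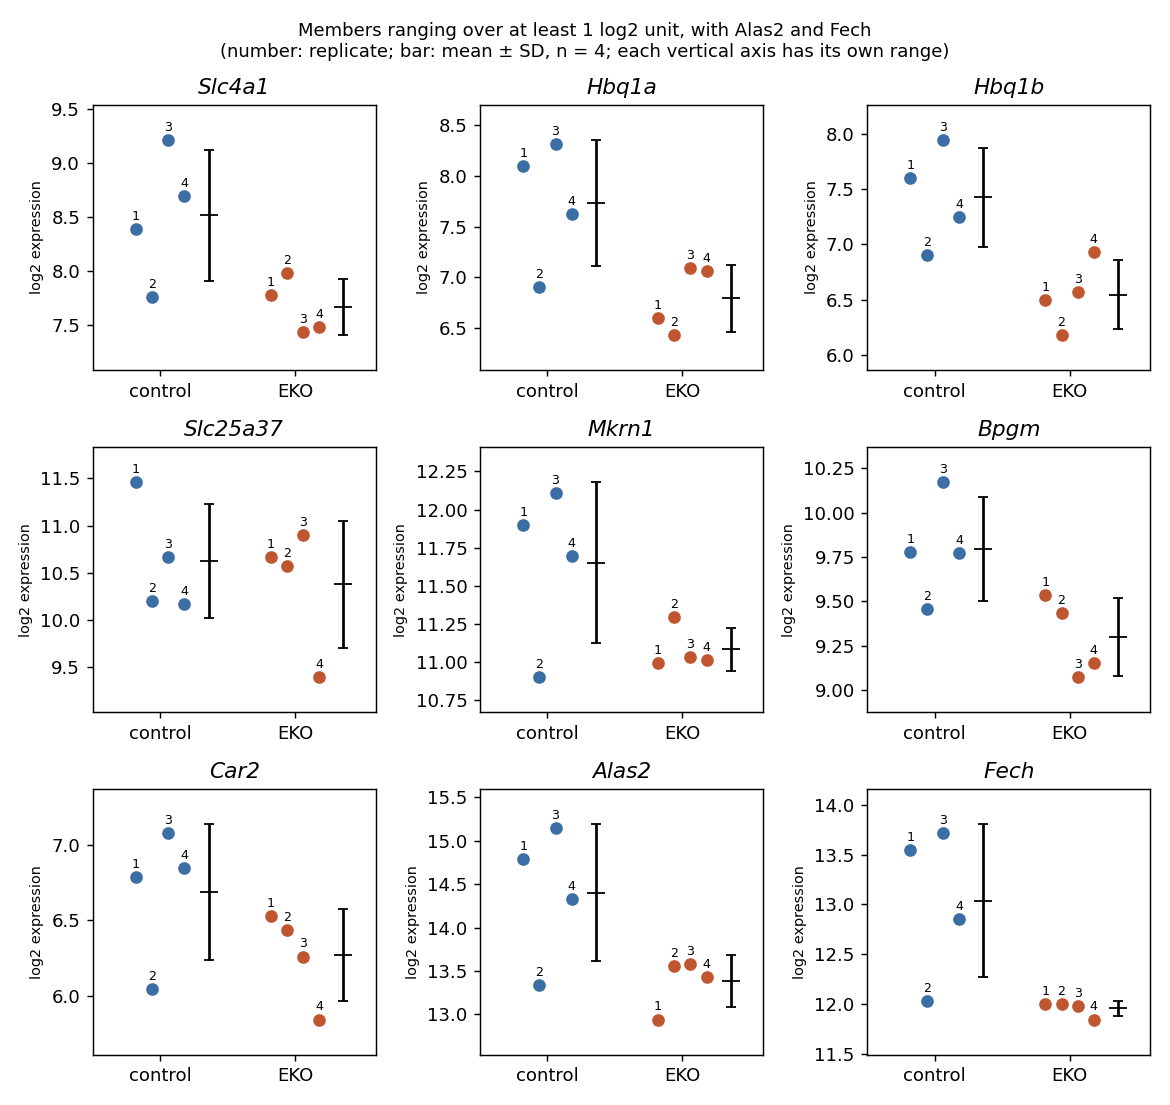
Log2 expression by group of the 7 members that range over at least 1 log2 unit and of the haem enzymes Alas2 and Fech. Points are arrays with their replicate numbers and bars are mean ± SD (n = 4), and each panel has its own vertical range. In Slc4a1, Hbq1a, Hbq1b, Mkrn1, Bpgm, Car2, Alas2 and Fech control arrays 1, 3 and 4 lie above all EKO arrays. Control array 2 lies below at least 1 EKO array in each of these but Fech, where it lies just above them.

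Over all genes, limma gave 0 of 16232 genes at an adjusted p under 0.05, a share of 0%, and 0 of the 15 tested members. At an unadjusted p under 0.05 limma gave 5 of the 15 members, where 8.93% of all genes tested reached it, 3.51% lower and 5.42% higher in EKO arrays. The same fit without moderated variances gave 4 members. The 5 were Slc4a1, Hbq1a, Hbq1b, Mkrn1 and Bpgm, and each was lower in EKO arrays. The members were proposed with this comparison in view, so nothing is read from that count. Over all 30 members the median difference was -0.0069 with 16 members below 0 and 14 above, beside a median of 0.03 and 40.6% below 0 over all 30063 genes. Over the 15 tested members the median was -0.24 and 12 were below 0, beside -0.02 and 55.1% over the genes tested. A difference of -0.4 or lower was found in 6 members, all tested, and in 1.87% of the genes tested. These too describe members proposed with the comparison in view. The split of the 30 depends on the scaling, since 23 were below 0 with quantile normalization and 24 with arrays centred on their median.

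**Figure D3:**
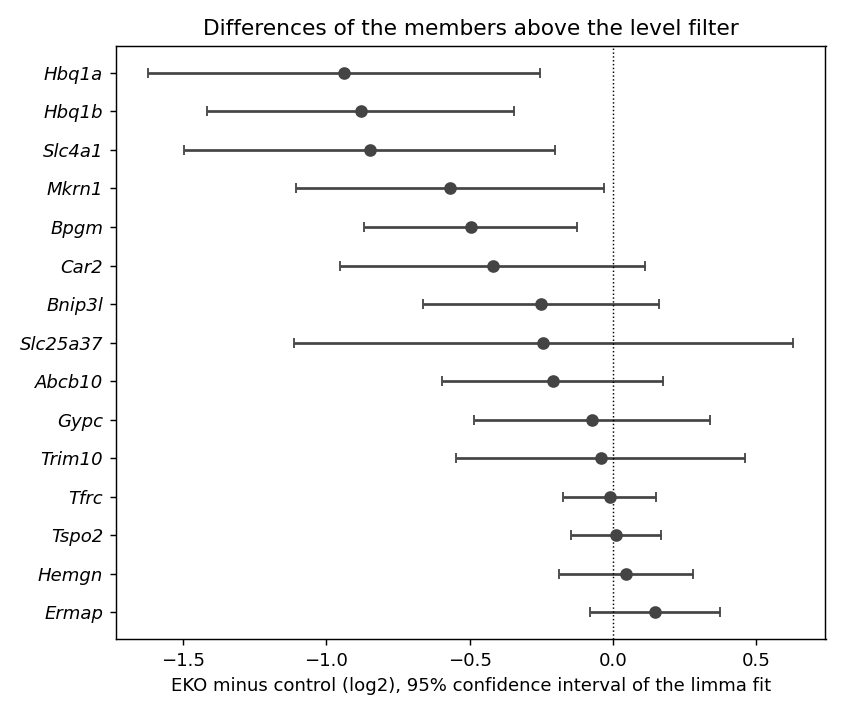
EKO minus control difference on the log2 scale (points) with the 95% confidence interval of the limma fit (bars) for the 15 members tested. The differences run from -0.94 (Hbq1a) to 0.15 (Ermap), and the intervals show the uncertainty of each difference. They belong to members proposed with this comparison in view, so they are no test.

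In 6 of the 7 members with a range of at least 1, the overlap of the groups rested on control array 2. It was singled out after its values were seen, so the counts without it are a description that this choice favours. Without it, 10 of the 30 members did not overlap between 3 control and 4 EKO arrays. EKO was lower in 7 (Slc4a1, Rhag, Hbq1a, Hbq1b, Mkrn1, Bpgm and Car2) and higher in 3 (Gata1, Epor and Trim58). Rhag, Gata1, Epor and Trim58 were below the level filter, and the other 6 were among the 15 tested members, all with EKO lower. In the same arrays 9.3% of the genes tested did not overlap, and 4.29% of the genes tested did so with EKO lower. No share over all 30063 genes was taken without control array 2. Slc4a1 then differed by -1.10, Hbq1a by -1.21, Mkrn1 by -0.82, and limma still gave 0 genes at an adjusted p under 0.05. Control array 2 also had the lowest mean of the neutrophil, T cell, B cell and macrophage markers of the 8 arrays, as given with those lists further on. All 5 measured B cell markers were below the negative controls on every array. The platelet mean was lower on EKO array 1 (6.92) than on control array 2 (7.08). The adult globin mean was 18.46 on control array 2 and lower on EKO arrays 1 (18.36) and 2 (18.33). The part of blood content in these values was not tested.

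The haem enzymes Alas2 and Fech, which are no members, showed the same arrays high. Alas2, the erythroid enzyme that starts haem synthesis, read 14.79, 13.34, 15.15 and 14.34 on control arrays 1 to 4 and 12.94, 13.56, 13.58 and 13.43 on EKO arrays 1 to 4 (-1.02, SE 0.36). Fech, which inserts iron into haem, read 13.54, 12.03, 13.72 and 12.85 against 12.001, 11.998, 11.98 and 11.84 (-1.08, SE 0.33). The groups of Fech did not overlap, with control array 2 just above EKO array 1, and those of Alas2 did. Of the 8 haem synthesis genes 7 were measured and tested, and 0 passed. The other 5 differed by -0.23 to 0.04, namely Alad (-0.23), Urod (-0.14), Ppox (-0.11), Uros (-0.06) and Cpox (0.04).

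Of 25 other genes of red cells and their precursors, 18 had a probe set of their own, and 14 of these were lower and 4 higher in EKO arrays. Beside them 40.6% of all 30063 genes and 55.1% of the genes tested were below 0. Of the 16 tested, 0 passed and 3 reached an unadjusted limma p under 0.05. They were Rnf10 (-0.45), Xpo7 (-0.36) and Tent5c (-0.34), all lower in EKO arrays. Of all genes tested 8.93% reached that level, 3.51% with EKO lower. This list too was chosen with earlier results of these data known, so nothing is read from its counts. Rnf10, a ring finger protein gene, read 9.85, 9.56, 10.29 and 9.92 on control arrays 1 to 4 and 9.53, 9.40, 9.41 and 9.48 on EKO arrays 1 to 4. Its groups did not overlap, and control array 3 was again the highest. Transcription partners shared by erythroid and endothelial cells were close to 0, with Lmo2 at -0.01, Zfpm1 at -0.07 and Tal1 at -0.11. The largest positive difference was that of Aqp1, a water channel of red cells and endothelium (0.41), with 11.04 to 12.26 on control and 11.26 to 12.34 on EKO arrays. The 4 embryonic globin genes were below the negative controls on every array, with Hbb-y at 0.21, Hbb-bh2 at 0.20, Hba-x at 0.11 and Hbb-bh1 at -0.06.

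Of the markers of other blood cells, none of the lists was highest on control array 3, where Slc4a1 was. The 11 neutrophil markers averaged 5.86 to 7.09 on control and 6.22 to 8.03 on EKO arrays, highest on EKO array 2. The 8 measured platelet markers (10 listed) averaged 7.08 to 8.24 and 6.92 to 8.51, highest on EKO array 4 and lowest on EKO array 1 and control array 2. The platelet chemokine gene Ppbp alone read 12.12, 8.74, 11.26 and 10.59 on control arrays 1 to 4 and 7.56, 11.08, 8.78 and 11.75 on EKO arrays 1 to 4. The 6 measured T cell markers (7 listed) averaged 6.43 to 6.93 and 6.56 to 7.26, the 5 B cell markers (6 listed) 5.78 to 6.38 and 5.91 to 5.97, and the 8 macrophage markers 6.70 to 7.44 and 6.95 to 7.46. Of these lists 5, 3, 2, 5 and 5 markers were below the negative controls on every array, in that order.

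**Figure D4:**
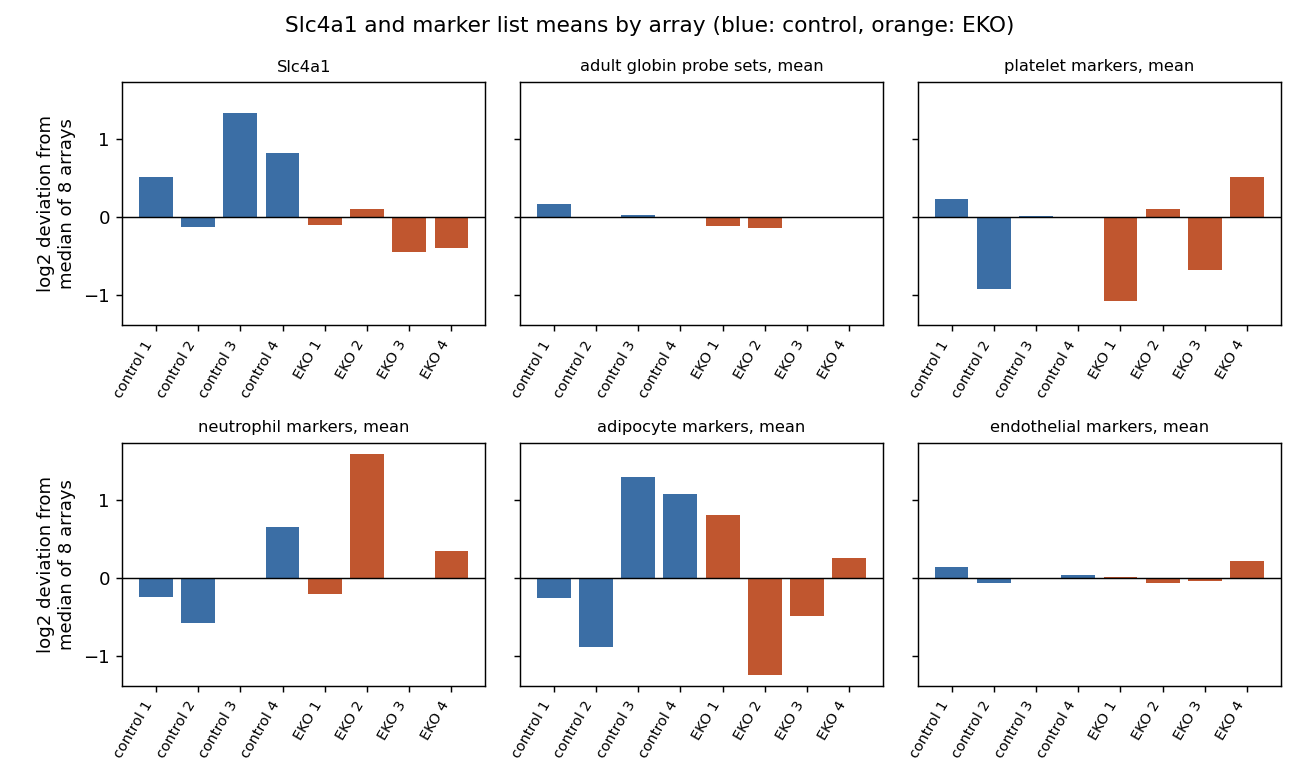
Log2 deviation from the median of the 8 arrays, for Slc4a1 and for the mean of the adult globin probe sets and of the platelet, neutrophil, adipocyte and endothelial marker lists (bars, 1 per array, blue for control and orange for EKO). Slc4a1 stands highest on control array 3, platelet markers on EKO array 4 and neutrophil markers on EKO array 2. On the same scale the adult globin mean runs from 18.33 to 18.63 and the endothelial mean from 12.72 to 13.01.

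Slc4a1 was set against 10 per-array measures, and in none did the relation pass the threshold. As a member it was proposed as a per-array gauge of blood RNA with earlier results in view. The p-values of these relations are thus given as a description and are no independent tests. With neutrophil markers Pearson r was 0.07 (exact permutation p = 0.875, adjusted over 10 relations 0.875) and Spearman rho 0.07 (p = 0.882, adjusted 0.882). With platelet markers r was 0.33 (exact permutation p = 0.417, adjusted 0.744) and rho 0.17 (p = 0.703, adjusted 0.836), and with the adult globin sets r was 0.32 (p = 0.446, adjusted 0.744) and rho 0.48 (p = 0.243, adjusted 0.405). With macrophage markers r was 0.56 (exact permutation p = 0.154, adjusted 0.513) and rho 0.50 (p = 0.216, adjusted 0.405). Within the 4 control and the 4 EKO arrays r was 0.62 and 0.66 for neutrophil and 0.73 and -0.04 for platelet markers. It was 0.75 and 0.85 for T cell, 0.39 and 0.32 for B cell and 0.90 and -0.06 for macrophage markers. For the adult globin sets it was 0.02 within the control and -0.98 within the EKO arrays. These values are a description of 4 arrays each. Over deviations from the group means T cell markers had r = 0.66 (permutation within groups, p = 0.0451, adjusted 0.451), neutrophil markers 0.53 (p = 0.135, adjusted 0.498) and macrophage markers 0.68 (p = 0.149, adjusted 0.498). All other tests were two-sided over the 40320 pairings of the arrays, and 8 arrays give little precision.

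The measures with the largest r rested on control arrays 3 and 4, the farthest from the median of Slc4a1. Of 10 adipocyte markers, 2 were below the negative controls on every array. Adipocyte markers averaged 7.85 to 10.03 on control and 7.49 to 9.55 on EKO arrays, highest on control array 3. Their r with Slc4a1 was 0.57 (exact permutation p = 0.138, adjusted 0.513) and rho 0.55 (p = 0.171, adjusted 0.405). Without control arrays 3 and 4 r was -0.20, and it was 0.94 within the control and -0.35 within the EKO arrays. The array median over all probe sets had r = -0.58 (exact permutation p = 0.131, adjusted 0.513) and rho = -0.69 (p = 0.0694, adjusted 0.405), and r = -0.12 without the same arrays. For T cell markers r was 0.25 (p = 0.548, exact) and rho 0.57 (p = 0.1511), and for B cell markers 0.45 (p = 0.261, exact) and 0.60 (p = 0.132). Endothelial markers had r = -0.07 (p = 0.870, exact) and rho = 0.14 (p = 0.752), and smooth muscle markers r = -0.21 (p = 0.610, exact) and rho = -0.24 (p = 0.582). The adjusted p for r in these 4 lay between 0.652 and 0.875. The part of adipose tissue in the values of Slc4a1 was not tested.

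The 10 genes most like Slc4a1 held no member. Likeness was taken as Pearson r over deviations from the group means on the 8 arrays, among 16231 other genes. The 10 highest were Pde2a (0.97), Nt5m, Gm13433, Kif23, Gm5457, E030024N20Rik, Mcat, Timm50, Nol10 and Gm11383 (0.95), each differing between the groups by 0.23 or less. Bpgm came at place 37 (0.92), Rnf10 at 77 (0.88), Mkrn1 at 83 (0.88), Car2 at 84 (0.88), Fech at 409 (0.77) and Alas2 at 594 (0.73). Hbq1a (0.51), Hbq1b (0.47) and Slc25a37 (0.18) were further down. Below 0 were the members Ermap (-0.22) and Tspo2 (-0.45) and the haem synthesis genes Ppox (-0.08), Urod (-0.54) and Cpox (-0.68). Among the other red cell genes Tal1 (-0.15), Xpo7 (-0.20), Slc43a1 (-0.53), Fam210b (-0.64) and Icam4 at place 16198 (-0.93) were below 0. These values describe 8 arrays that share their libraries with every gene compared.

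Sequence near the start of the members was described because GATA1 and KLF1 act on many erythroid promoters. RefSeq windows of 300 bases in GRCm38.p6, as described for the theta globins, were at hand for 21 members, 23 windows in all. Ank1, Bnip3l, Car1, Car2, Cldn13, Gypc, Nfe2, Slc25a37 and Slc4a1 had none. The GATA motif was AGATAA or its variant TGATAA, with AGATAG taken as equal and so TGATAG, the KLF motif CCNCNCCC and the NFE2 motif GCTGANTCA, each searched on both strands, with overlapping matches counted separately. The GATA motif was present in 12 of the 23 windows (52.2%) and in 29.8% of all 32851 windows of that length. The KLF motif was present in 13 (56.5%) and in 49.5% of all, and the NFE2 motif in 0 and in 1.19%.

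None of the 5 windows of wide-ranging members held the GATA motif (Hbq1a, Hbq1b, Bpgm and both starts of Mkrn1), while 12 other windows did, among them those of Klf1, Kel, Rhag, Rhd, Epb42 and Epor. Gata1, Tfrc, Tmod1, Tspo2 and Abcb10 had no GATA match either. The theta globin windows are near-identical, Mkrn1 counts with both starts, and the wide-ranging Slc4a1, Slc25a37 and Car2 had no window. Nothing is thus read from a contrast of wide-ranging and other members. Epor and Mkrn1 are shown as 1 example with and 1 without a GATA match. They were chosen after the matches were seen, with the GATA and KLF matches in capitals. Epor lies on the minus strand at chr9:21963527-21963826, where the GATA match begins at position -54 from the start and the KLF motif matches 4 times. Mkrn1 lies on the minus strand at chr6:39419727-39420026, with 1 KLF match.
Epor: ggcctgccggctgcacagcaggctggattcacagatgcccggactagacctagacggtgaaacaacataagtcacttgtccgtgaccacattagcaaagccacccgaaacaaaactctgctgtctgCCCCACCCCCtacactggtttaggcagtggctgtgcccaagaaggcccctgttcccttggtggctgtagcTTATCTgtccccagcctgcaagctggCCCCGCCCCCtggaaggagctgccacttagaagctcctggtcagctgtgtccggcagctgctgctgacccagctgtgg
Mkrn1: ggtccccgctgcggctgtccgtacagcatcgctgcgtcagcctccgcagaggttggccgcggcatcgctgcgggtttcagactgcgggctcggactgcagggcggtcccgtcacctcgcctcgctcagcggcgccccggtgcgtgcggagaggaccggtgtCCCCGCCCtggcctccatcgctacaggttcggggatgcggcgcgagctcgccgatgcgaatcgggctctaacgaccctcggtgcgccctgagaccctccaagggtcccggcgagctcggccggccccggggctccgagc
A match is a description of letters and not of binding, and a window without a match says nothing about the factor.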

How the data were processed

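Endothelial RNA of 8 aortas, 4 control and 4 EKO, was measured on 1 array each, and groups were taken from the sample titles. The deposited values are log2 expression per probe set. Per the labels, the authors normalized the arrays in Expression Console (SST-RMA), and array medians of 6.06 to 6.24 remained different. The software version and genome build are not given in the sources used here. Of 72688 probe sets, 30604 carried 1 symbol. Symbols were updated through RefSeq (GRCm38.p6), and the probe set with the highest mean stood for a gene. Genes with a mean above 6.14 entered a limma fit (version 3.58.1, under R 4.3.3) with Benjamini-Hochberg adjustment at 0.05, and the fit was tested on simulated data. Nothing in the labels gives batches.

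The members, role groups and marker lists were chosen with earlier results of these data known. Values on every array were given for up to 3 members per role group, for those with the largest differences or ranges, and for genes needed beside them. The adult globins had no probe set with a single symbol, so their shared sets were used, which departs from the plan. Fibroblast, smooth muscle, striated muscle and nerve lists served as checks of other tissue. Same-numbered arrays deviated together with r of -0.16, 0.21, -0.24 and 0.13 across genes. Differently numbered arrays had r from -0.40 to 0.46, so these values show no pairing by replicate number and cannot exclude it. The alternatives covered filter, probe choice, scaling, variance model, weights, covariates, block and single arrays left out.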

Additional observations from a re-analysis of the deposited data

Results flagged for a closer look

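Of 64 groups of 4 arrays examined (the 30 members, Alas2 and Fech in both groups), 3 held an array far from the other 3 of its group, where chance gives about 1 in 20. Nfe2 read 6.11 on EKO array 2, above the other EKO arrays (5.88 to 5.90), though below the negative controls. Mkrn1 read 11.297 on EKO array 2, where the other EKO arrays read 10.997 to 11.03. Fech read 11.843 on EKO array 4, against 11.98 to 12.001 on the others, a small step because the other 3 were so close.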

How the results depend on the processing

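The count of genes at an adjusted p under 0.05 was 0 under every alternative run, the replicate block and each array left out included, and the smallest adjusted p was 0.168, without EKO array 1. At an unadjusted p under 0.05 the count over all genes was 1449, and 937 once array medians were fitted as a covariate, where 1 of the 15 members reached it against 5. The median difference of the members lay between -0.04 and 0.02 with single arrays left out and was -0.0069 with the replicate block. It was -0.072 with quantile normalization and with centred arrays and -0.055 with array medians fitted, beside an SD of 0.115 between arrays in the members' mean. The differences of Slc4a1, Hbq1a, Hbq1b, Mkrn1, Bpgm, Car2, Alas2, Fech, Bnip3l and Ermap kept their sign under all alternatives, though Bnip3l ran from -0.39 (without control array 2) to -0.13 (without control array 1). Ermap became 0.23 without EKO array 1, 0.0987 with the adipocyte mean fitted, 0.09 and 0.08 with quantile normalization and centring, and 0.0043 with array medians fitted. With array weights Slc4a1 was -1.02, Hbq1a -0.98 and Hbq1b -0.92. Gypc (0.0070), Abcb10 (0.038), Trim10 (0.029), Tspo2 (-0.040) and Hemgn (-0.068) turned sign with array medians fitted. Trim10, Tspo2 and Hemgn, whose differences lay near 0, turned sign under other alternatives too, as did Tfrc without control array 3 (0.032). With single arrays left out Gypc ranged from -0.23 to 0.026 and Slc25a37 from -0.41 to 0.086. The cause was not tested.

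For the relations with Slc4a1, 10 values turned sign and none passed the threshold. The r with endothelial markers became 0.25 with arrays centred on their median and 0.022 with quantile normalization. With deviations from the group means r was -0.24 for the adult globins and 0.13 for smooth muscle, and with the replicate block -0.55 and 0.19 (4 pairs of arrays). With single arrays left out r ran from -0.046 to 0.22 for neutrophils and from -0.21 to 0.39 for endothelial markers. It ran from 0.23 to 0.68 for platelet (highest without EKO array 4), 0.15 to 0.55 for T cell (without EKO array 2), 0.24 to 0.79 for B cell (without control array 3) and 0.45 to 0.71 for macrophage markers (without EKO array 1). With the replicate block r was 0.83, 0.93 and 0.94 for neutrophil, T cell and macrophage markers (exact permutation over 4 pairs, each adjusted p = 0.417). So few pairs allow few orderings, and a relation could not have passed the threshold on its own after adjustment. Nothing is read from those p-values. The array median is constant once arrays are centred or quantile normalized, so its relation has no value there.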

Other observations

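Other tissue also varied between the arrays. Striated muscle markers averaged 5.83 to 6.86 on control and 5.99 to 6.58 on EKO arrays, highest on control array 4, where the fast troponin gene Tnnt3 read 9.29 against 6.01 to 6.10 on the other control arrays. Smooth muscle markers averaged 7.58 to 7.95 and 7.74 to 8.41, highest on EKO array 1. Fibroblast markers averaged 8.36 to 8.97 and 8.06 to 8.56, highest on control array 3. Below the negative controls on every array were 8 of 10 striated muscle, 4 of 7 smooth muscle and 3 of 6 measured fibroblast markers. Nerve markers averaged 5.37 to 5.40 and 5.44 to 5.58, and all 5 measured were below the negative controls on every array.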
